A study of Mus musculus with 8 samples.

Results

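The 10 genes described here are the Notch receptors Notch1 and Notch2, the ligands Dll1, Dll3, Jag1 and Jag2, the target genes Hes1, Hes5 and Hey1, and the DNA-binding mediator Rbpj. They were chosen by name, and each has 1 row among the 34299 gene identifiers of the deposited count table. All 10 passed the filter on low counts in every comparison. The study sequenced messenger RNA from whole mouse brain to ask about caveolin 1, the main scaffold protein of caveolae, whose gene is Cav1. There were 3 groups: 3 libraries from wild-type (WT) fetuses at day 15, 3 from Cav1 knockout (KO) fetuses at day 15, and 2 from Cav1 KO mice at week 70. Week 70 brain of WT mice was not analysed here. Strain, sex, the Cav1 allele and any pooling of animals are not given in the sources used here; the labels call the fetal samples biological replicates and do not say this of the week 70 pair.

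Notch signalling passes between neighbouring cells. A ligand of the Delta or Jagged kind on one cell binds a Notch receptor on the next, the receptor is cut by an ADAM protease and then by gamma-secretase, and its released intracellular part enters the nucleus, joins Rbpj and a Mastermind coactivator, and turns on Hes and Hey repressor genes. In the embryonic brain this circuit is known for keeping radial glia, the neural stem cells, undifferentiated while proneural factors such as Neurog2 raise Dll1 in cells that leave to become neurons.

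Each library held 14110031 to 20833397 counts, the 3 KO fetal libraries being the shallowest. Cav1 had 367, 218 and 329 counts in the WT libraries, 0, 3 and 1 in the KO fetal libraries and 1 and 5 at week 70, so the labels fit the targeted gene. The fetal genotypes also differed in composition. Mitochondrially encoded genes held 1.26 to 1.35% of counts in WT and 3.3 to 3.87% in KO fetal libraries, and processed pseudogenes held 3.25 to 3.35% and 5.56 to 5.86%. At week 70 pseudogenes held 0.257 to 0.264%, far below either fetal group; whether the week 70 libraries were prepared and counted together with the fetal ones is not given in the sources used here, so such a difference and age cannot be told apart. Across the genes tested between the fetal genotypes, the log2 fold change also moved with transcript length (Spearman's rho -0.367) and GC content (rho -0.477), a description across genes, which are not independent replicates. Between the KO ages the same correlations were 0.203 and 0.281. Each member is therefore given also after a per-library correction for length and GC in these comparisons. WT replicate 1 stood apart in 8 markers of meninges and fibroblasts (summed level 4473 CPM, against 325.4 and 541.1 in the other WT and 75.87 to 148 in the KO fetal libraries) and in 7 of cartilage and muscle (505.6 CPM, against 106.5 and 96.15, and 47.68 to 54.03). Without it all 10 members still passed as lower in KO fetal brain, with a median log2 fold change of -0.76. In that fit 11365 of 19543 genes tested passed in either direction, and the median of all genes was 0.04. Without mitochondrial and haemoglobin genes all 10 members also passed as lower, with a median of -0.78. There 11987 of 19114 genes passed, and the median of all genes was 0.05. The part of the remaining composition differences in the results was not tested.

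The promoters of Rbpj-bound targets are known to carry the core letters TGGGAA, so the 250 bases before each annotated start were searched for them on both strands in RefSeq's promoter table (GRCm38.p6). The table had windows for 8 of the 10 genes, 10 windows in all; it has no entry for Hes1 or Hey1. The letters TGGGAA occurred in 3 of those windows, which belong to 2 genes, Hes5 and Rbpj. Of all 32851 promoter windows 21.59% held at least 1 match and 2.77% held 2 or more. Hes5 had 2 matches, at -226 to -221 on the reverse strand and at -82 to -77 on the forward strand, counted from the start site. Rbpj had 2 in its first window, at -149 to -144 (forward) and -65 to -60 (reverse); its second window, from a start further downstream, repeats the latter. The Hes5 window at chr4:154960673-154960922 (plus strand) and a stretch of the first Rbpj window, chr5:53590096-53590213 (plus strand), are shown because they hold 3 of these matches. The Rbpj stretch lies within the annotated gene span, ends before the Rbpj exon that overlaps the window, and holds the match at -149; capitals mark TGGGAA or its reverse complement.
Hes5: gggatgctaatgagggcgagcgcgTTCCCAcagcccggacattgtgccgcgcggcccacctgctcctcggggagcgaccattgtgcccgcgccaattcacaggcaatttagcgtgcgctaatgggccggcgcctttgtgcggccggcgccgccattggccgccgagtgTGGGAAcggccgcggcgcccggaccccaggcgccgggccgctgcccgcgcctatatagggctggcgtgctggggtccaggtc
Rbpj: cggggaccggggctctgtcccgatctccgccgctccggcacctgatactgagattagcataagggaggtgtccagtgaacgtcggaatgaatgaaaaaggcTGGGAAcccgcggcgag
A match describes the letters only. The N box CACNAG, a sequence bound by Hes proteins, occurred once in the Notch1 window (-108 to -103, forward) and once in the Notch2 window (-247 to -242, reverse), against 36.67% of all windows. No member window held both sequences, so their matches could not overlap.

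The first comparison asked how the fetal brain without Cav1 differed from WT at day 15. All 10 genes were lower in the KO libraries (edgeR quasi-likelihood test, Benjamini-Hochberg adjusted p under 0.05 over all genes tested). So many genes differed that this count needs its background: 62.6% of 19147 genes tested passed, 30.1% higher and 32.5% lower. The members' median log2 fold change was -0.80, against 0.03 over all genes tested. Notch1, Notch2 and Dll3 had the largest drops. The smallest were those of Rbpj and Jag2, and Jag2 turned higher after length and GC correction (log2 0.63). In whole-tissue RNA, fewer cells of a type and less RNA per cell cannot be told apart.

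Notch1, the receptor most tied to neural stem cell maintenance, stood at 165.6, 171 and 163.1 normalised CPM (read counts scaled to a common library size) in the WT libraries, at 38.96, 35.57 and 31.4 in the KO fetal libraries, and at 37.49 and 32.59 in the week 70 libraries. Every WT library was far above every KO library of either age, and the KO ages overlapped. Between the fetal genotypes the fall was 4.59-fold (log2 fold change -2.20, SE 0.0751, edgeR adjusted p = 1.59e-08), and after length and GC correction the log2 fold change was -1.13. Notch2, a closely related receptor, read 121.4, 98.45 and 96.25 CPM in WT, 28.24, 31.63 and 30.3 in KO fetal, and 20.16 and 24.6 at week 70. Its groups followed one another without overlap. The fetal difference was 3.41-fold (log2 -1.77, SE 0.0912, edgeR adjusted p = 9.01e-08), and -0.89 after correction. Their transcripts are among the longest of the members, 9488 bases for Notch1 and 10500 for Notch2, and correction brought both log2 values closer to 0. Short antisense genes overlap Notch1 exons, but those in the table held 154 and 10 counts over all 8 libraries.

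Dll1 is the ligand that newborn neurons present to radial glia. It read 61.55, 62.87 and 59.58 CPM in WT, 33.45, 34.91 and 33.26 in KO fetal, and 7.116 and 8.819 at week 70. The 3 groups formed 3 separate steps with little spread within any of them. Dll3, a divergent ligand that acts inside the cell to dampen Notch activity, stood at 24.77, 23.4 and 23.36 CPM in WT, 7.029, 7.226 and 7.532 in KO fetal, and 1.186 and 2.343 at week 70, where it had 18 and 34 counts. It formed the same staircase, with a steeper first step. The fetal log2 fold change was -0.82 (SE 0.0612, edgeR adjusted p = 1.09e-06) for Dll1 and -1.67 (SE 0.0966, edgeR adjusted p = 1.77e-07) for Dll3. After correction they were -0.29 and -0.99, and both still passed.

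Jag1, the Jagged ligand known from both progenitors and vessel walls, read 39.77, 31.14 and 32.4 CPM in WT, 20.12, 19.62 and 18.6 in KO fetal, and 11.93 and 10.2 at week 70. Again no 2 groups overlapped. Its fetal log2 fold change was -0.79 (SE 0.099, edgeR adjusted p = 5.24e-05), or -0.35 after correction (adjusted p = 0.00834). Jag2, its paralogue, read 80.71, 85.03 and 92.18 CPM in WT, 68.96, 64.81 and 48.67 in KO fetal, and 39.93 and 53.54 at week 70. The WT libraries lay above the rest, while the KO ages overlapped. The fetal difference was the smallest among the ligands, 1.38-fold (log2 -0.46, SE 0.11, edgeR adjusted p = 0.00404), and its direction depended on the correction: with length and GC corrected, Jag2 was higher in KO (log2 0.63, edgeR adjusted p = 5.95e-05). Its transcript has 61.87% GC, close to the 62.14% of Hes5, which is the highest of the 10.

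Among the targets, Hes1, the repressor whose loss lets progenitors differentiate early, read 17.99, 14.62 and 14.62 CPM in WT and 9.574, 9.616 and 9.154 in KO fetal libraries. The WT libraries were all higher, and the log2 fold change of -0.70 (SE 0.116, edgeR adjusted p = 0.000392) became -0.87 with correction. Hes5, the target most used as a readout of Notch activity in radial glia, read 17.06, 17.12 and 16.38 CPM in WT and 12.85, 11.62 and 9.27 in KO fetal libraries. The groups did not overlap, although the KO libraries were spread out. The Hes5 change of -0.55 (SE 0.124, edgeR adjusted p = 0.00301) did not pass after correction (-0.19, adjusted p = 0.14). Hey1, a related repressor also known from blood vessels, read 24.07, 23.65 and 22.05 CPM in WT and 12.91, 13.01 and 12.34 in KO fetal libraries, tight in both groups. It fell by 0.83 on the log2 scale (SE 0.0891, edgeR adjusted p = 1.61e-05), and its value after correction was -0.63.

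Rbpj, to which the Notch intracellular domain binds, read 59.49, 83.38 and 54.6 CPM in WT and 48.78, 46.91 and 53.48 in KO fetal libraries. WT replicate 2 stood well above the other libraries, and the lowest WT and highest KO library nearly met. The log2 fold change was -0.37 (SE 0.14, edgeR adjusted p = 0.0416), the weakest of the 10. It did not pass without WT replicate 2 (-0.16, adjusted p = 0.122), without KO replicate 1, 2 or 3 (-0.36, -0.34 and -0.42, adjusted p = 0.0932, 0.115 and 0.0549) or after length and GC correction (-0.33, adjusted p = 0.0595). A processed pseudogene, Rbpj-ps3, shares 99.7% of its bases with Rbpj, and held 1024, 840 and 877 counts in WT, 358, 415 and 411 in KO fetal and 25 and 9 in week 70 libraries. How reads were shared between the pair is not given in the sources used here, so Rbpj's own values are uncertain. With both rows summed, a choice made after seeing the data, the fetal log2 fold change was -0.57 (SE 0.0898, edgeR adjusted p = 0.000277).

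**Figure D1:**
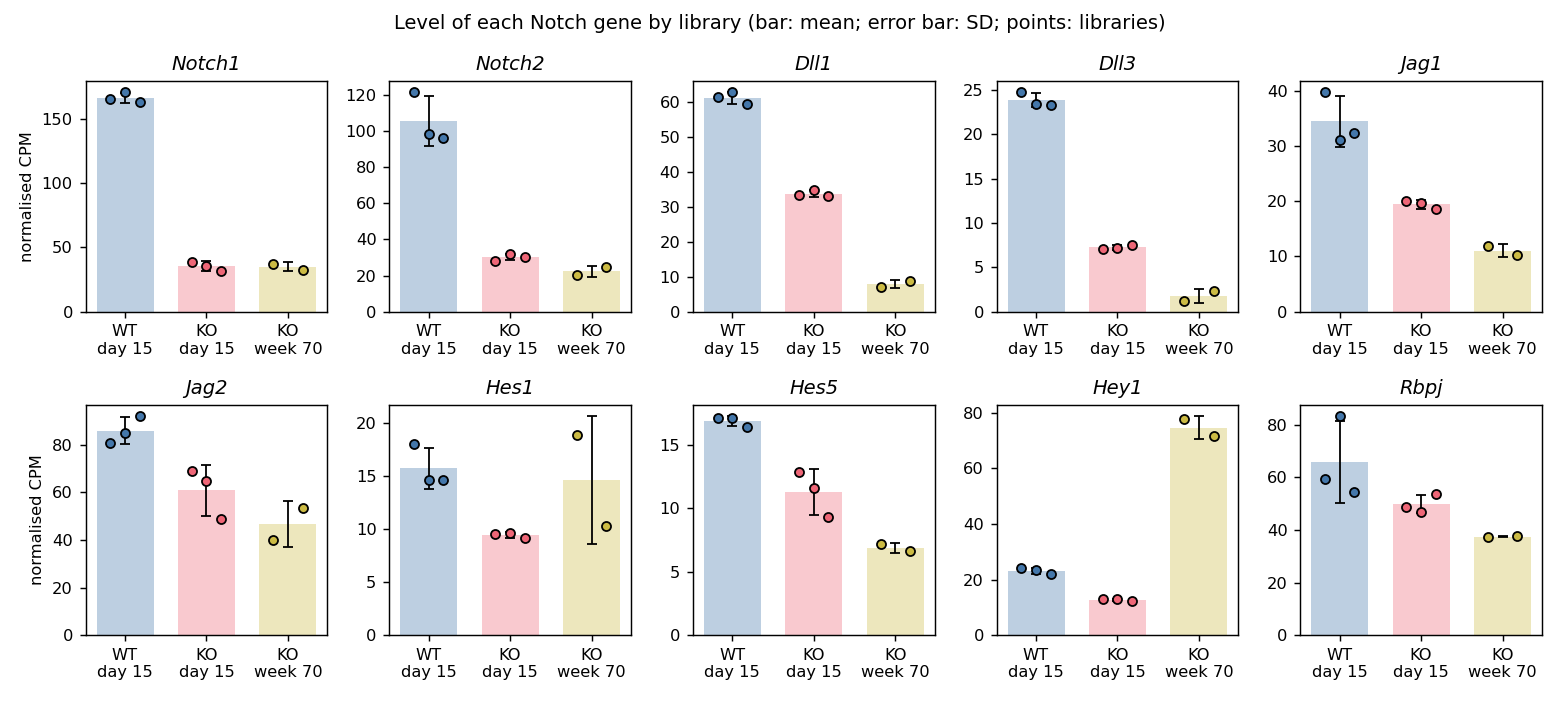
Normalised CPM (vertical axes, each from 0) of the 10 genes, with points for libraries, bars for group means and error bars for SD (n = 3, 3 and 2). Notch1 falls from a WT mean of 166.6 to 35.3 in KO fetal brain and overlaps it at week 70, whereas Hey1 reaches 74.6 at week 70 from 12.75 in KO fetal brain.

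After length and GC correction, 7 members were lower in KO fetal brain, 1 (Jag2) was higher, and 2 (Hes5 and Rbpj) did not pass, against 51.1% called, 25.1% lower and 26.0% higher, among the 19050 genes with a known length and GC. The corrected median was -0.49, against 0.03 over those genes. Scaling by the upper quartile in place of TMM moved the median of all genes to 0.20 and that of the members to -0.63, with every member still lower and only Rbpj no longer past the threshold (-0.19, edgeR adjusted p = 0.241). On the pairwise scale, the CPM ranges of 9 members did not overlap between the genotypes, which also held for 68.5% of the genes tested.

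The second comparison set week 70 KO brain against day 15 KO brain, and so asked how the levels stood in old brain relative to fetal brain without Cav1; the corresponding WT change was not analysed here. In these libraries 7 members were lower at week 70, 1 was higher and 2 did not pass. Among the 20000 genes tested 82.0% passed, 37.6% higher and 44.4% lower, and the CPM ranges of 8 members did not overlap, against 87.9% of those genes. The members' median log2 fold change was -0.52 and that of all genes -0.19, or -1.04 and -0.04 with length and GC correction.

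The 4 ligands were lower at week 70. Dll1 differed 4.56-fold (log2 -2.19, SE 0.136, edgeR adjusted p = 1.03e-07; -2.86 with correction) and Dll3 4.41-fold (-2.14, SE 0.304, edgeR adjusted p = 7.58e-05; -3.15 with correction). Jag1 was 1.88-fold lower (-0.91, SE 0.14, edgeR adjusted p = 0.000138; -1.17 with correction). Jag2 was 1.39-fold lower (-0.48, SE 0.16, edgeR adjusted p = 0.0176), which did not pass without KO fetal replicate 1 (-0.38, adjusted p = 0.0588) or without week 70 replicate 1 (-0.27, adjusted p = 0.143). With correction the Jag2 difference was larger, -1.83 (adjusted p = 3.15e-07). Of the receptors, Notch2 was lower (-0.53, SE 0.124, edgeR adjusted p = 0.00254; -0.91 with correction), and Notch1 did not pass (-0.11, SE 0.117, adjusted p = 0.401) unless corrected for length and GC (-0.84, adjusted p = 9.71e-05) or scaled by the upper quartile (-0.36, adjusted p = 0.0162).

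The targets went separate ways with age. Hey1 read 77.62 and 71.59 CPM at week 70, above every fetal library of either genotype, and was 5.46-fold higher than in KO fetal brain (log2 2.45, SE 0.097, edgeR adjusted p = 3.41e-09; 2.17 with correction). It was the only member with a higher level at week 70 that passed. Hes5 read 7.182 and 6.615 CPM at week 70, below every fetal library, with a log2 fold change of -0.80 (SE 0.194, edgeR adjusted p = 0.00301; -1.30 with correction). Hes1 read 18.91 CPM in 1 week 70 library and 10.34 in the other, the former above every fetal library and the latter just above the KO fetal ones. Its log2 fold change of 0.53 (SE 0.229, edgeR adjusted p = 0.0515) did not pass, was 0.90 without week 70 replicate 2 (adjusted p = 0.000163) and 0.04 without week 70 replicate 1. The 2 week 70 libraries also differed in the summed level of 6 choroid plexus and ependymal markers, 82.1 and 2410 CPM in the same order; their part in the Hes1 difference was not tested.

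Rbpj read 37.29 and 37.62 CPM at week 70, below all fetal libraries. The log2 fold change was -0.51 (SE 0.0978, edgeR adjusted p = 0.000683) for the Rbpj row alone, -1.01 with Rbpj-ps3 added and -0.20 with length and GC correction (adjusted p = 0.0516). Notch1, Hes1 and Rbpj thus changed sides of the threshold with correction. Corrected, 7 members were lower and 2 were higher, Hes1 (0.80, edgeR adjusted p = 0.011) and Hey1. Of all genes 39.2% were lower and 39.6% higher (78.7% called in all).

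Week 70 KO brain was also compared with day 15 WT brain, where age and genotype both differ and cannot be told apart. This comparison shares libraries with each of the others. Here 8 members were lower, 1 (Hey1) was higher and Hes1 did not pass (-0.12, edgeR adjusted p = 0.686), while 78.6% of 19465 genes passed, 36.7% higher and 41.9% lower. The CPM ranges of 9 members did not overlap, against 86.5% of the genes. Dll3 had the widest gap, 13.7-fold (log2 -3.77, SE 0.263, edgeR adjusted p = 8.53e-06), followed by Dll1 at 7.78-fold (-2.96), and Notch1 and Notch2 at -2.26 and -2.25. Jag1 was at -1.65, Hes5 at -1.30, Jag2 at -0.90 and Rbpj at -0.83, and Hey1 was 3.18-fold above WT fetal brain (1.67). Length and GC correction left the same 9 members past the threshold in the same directions, 8 lower and 1 higher, where 76.7% of the genes passed, 37.9% lower and 38.8% higher.

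**Figure D2:**
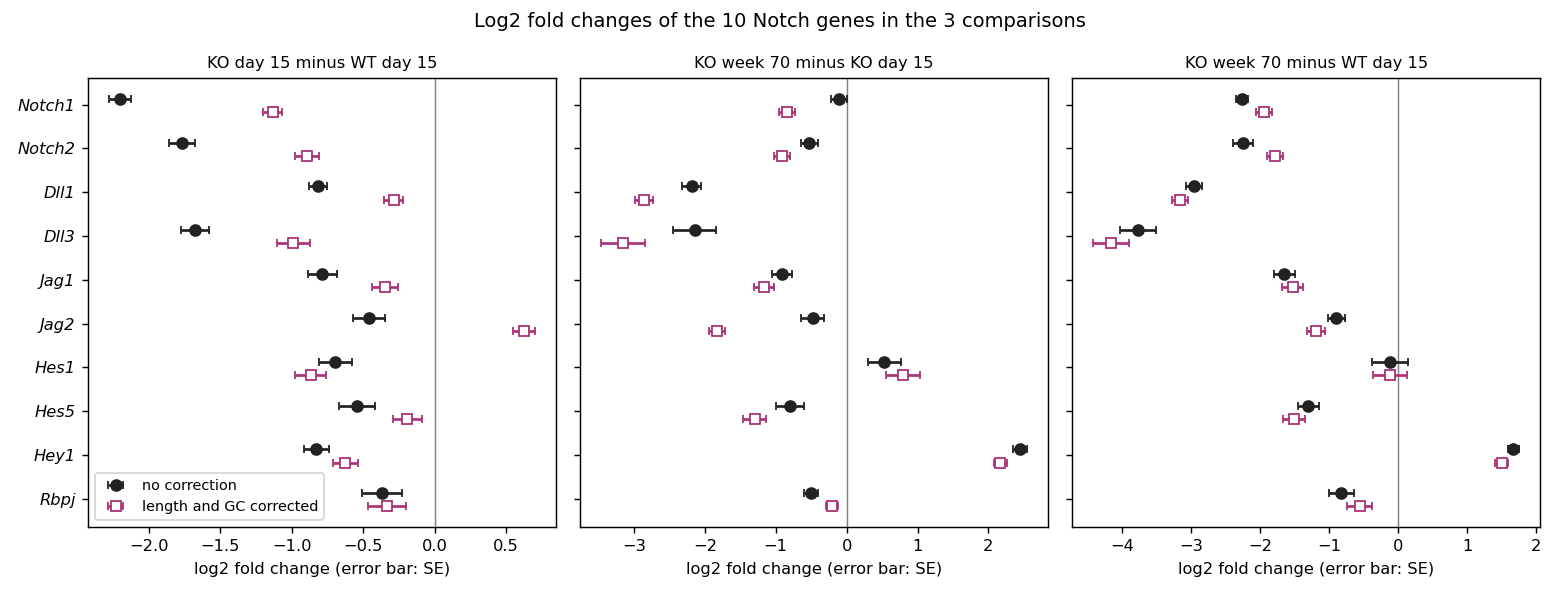
Log2 fold change (horizontal axes) of each gene in the 3 comparisons, with SE as error bars, before (filled circles) and after (open squares) length and GC correction. In fetal brain Jag2 crosses from -0.46 to 0.63, and Hey1 lies to the right of 0 in both week 70 comparisons (2.45 and 1.67).

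By group means of uncorrected CPM, 8 of the 10 genes ran from WT fetal through KO fetal to KO week 70 in falling order. In 6 of them, Notch2, Dll1, Dll3, Jag1, Hes5 and Rbpj, no library of one group reached into the next when all 8 libraries were scaled together; scaled within the fetal libraries alone, the Rbpj genotypes overlapped. In Notch1 and Jag2 the KO ages overlapped. The share of all genes that fall in this order is not given here. Scaled in pairs, 68.5% of the genes tested did not overlap between the fetal genotypes and 87.9% between the KO ages. With length and GC correction the fetal step turned for Jag2 and did not pass for Hes5 and Rbpj. Hes1 was lowest in KO fetal brain, and Hey1 ran from week 70 through WT to KO fetal.

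Levels of different genes can be set side by side only per length, here as normalised CPM per kilobase of annotated exon. In WT fetal brain Dll1 led at 14.5, followed by Hes5 at 12.4, Jag2 at 12.3, Notch1 at 11.7, Notch2 at 9.77, Dll3 at 8.37, Hes1 at 7.73, Hey1 at 7.12, Jag1 at 5.91 and Rbpj at 5.16. Of these neighbours only Dll1 and Hes5, Notch1 and Notch2, and Notch2 and Dll3 did not overlap between libraries. In KO fetal brain Jag2 (8.73), Hes5 (8.25) and Dll1 (8.03) were at the top, and Notch1 was last at 2.48. At week 70 Hey1 led at 22.85, with Hes1 next at 7.18, and Dll3 was last at 0.619. The order depends on the length used: per kilobase of the longest transcript, Notch1 was first in WT (17.6), Rbpj stood in the middle of the order and Dll3 was last in both KO groups, while Hey1 still led at week 70 (30.8).

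Within each role, the makeup was followed as the share of the summed CPM per kilobase, without length and GC correction. Dll3 held 19.4% ± 0.455 of the summed level of 5 ligands (Dll4 included) in WT and 10.8% ± 1.31 in KO fetal brain (SD, n = 3). Jag2 held 28.65% ± 2.09 and 36.6% ± 3.74, while Dll1 held 33.7% and 34.0%, Jag1 13.7% and 14.1%, and Dll4 4.49% and 4.51%. The Jag2 share rests on uncorrected values, and Jag2's fetal direction depends on the correction. Of 4 receptors, Notch1 held 32.7% in WT and 26.8% in KO, Notch2 27.1% and 30.4%, Notch3 33.25% and 32.4%, and Notch4 6.97% and 10.4%. Among the 3 targets the shares were, in WT and KO, Hes1 28.3% and 27.7%, Hes5 45.5% and 48.9%, Hey1 26.2% and 23.35%. In 5 of the 12 shares (Dll3, Jag2, Notch1, Notch4 and Hey1) the genotypes did not overlap. That gives p = 0.1 in a two-sided exact permutation test, or an adjusted p of 0.24 over the 12. It is the smallest p that 20 splits allow, so the test cannot decide whether these shares differ. Shares within a role also depend on one another. Notch4 itself did not pass between the fetal genotypes after length and GC correction. At week 70 Jag2 held 54.6% of the ligands and Hey1 65.4% of the 3 targets, while Dll1 held 15.4%, Dll3 4.97% and Hes5 14.5%.

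**Figure D3:**
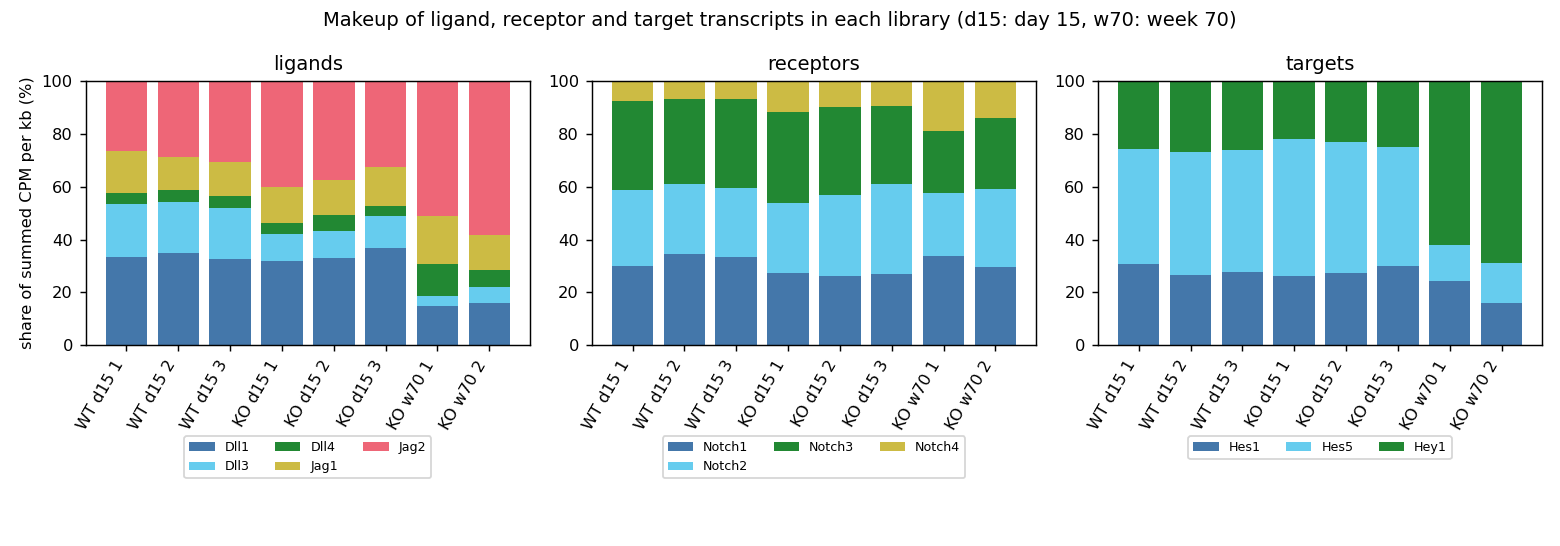
Share (%, vertical axis) of each gene in the summed CPM per kilobase of ligands, receptors and targets, 1 bar per library. Jag2 widens from 28.65% of ligands in WT to 54.6% at week 70, and Hey1 from 26.2% of targets to 65.4%.

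The rest of the pathway was followed in a list of 61 further genes, of which 58 were tested between the fetal genotypes. In KO fetal brain 43 were lower, 5 higher and 10 did not pass, against 32.5% lower and 30.1% higher over all genes, with a median log2 fold change of -0.59; leaving out any 1 library gave 41 to 43 lower. After correction 26 were lower, 13 higher and 19 did not pass, against 25.1% and 26.0% of all genes, with a median of -0.16. The correction turned 6 called genes from lower to higher: Mib2, Neurl1a, Pofut1, Rfng, Numbl and Dtx3. The receptors Notch3 (-1.95, edgeR adjusted p = 1.46e-07) and Notch4 (-1.33, adjusted p = 2.95e-05) fell with Notch1 and Notch2. Notch3 was at -0.77 after correction, but Notch4 did not pass after correction (-0.13, adjusted p = 0.427), nor did the ligand Dll4 (-0.80 before, -0.19 after). Of 4 ubiquitin ligases that prime ligands for uptake, all were lower without correction, among them Neurl1b (-1.33, or -0.44 corrected), and with it 2 were lower and 2, Mib2 (0.38) and Neurl1a (0.32), were higher. All 3 receptor proteases were lower either way, among them Furin (-1.21, or -0.34 corrected). Of 7 gamma-secretase genes 3 were lower and 4 did not pass (2 and 5 corrected). Of 7 coactivators 5 were lower and 1 higher (4 and 1 corrected), including Maml1 at -1.42 (-0.58 corrected). Of 10 corepressors, which silence targets together with Rbpj or Hes proteins, 7 were lower and 1 higher (5 and 2 corrected), including Spen at -1.83 (-0.78 corrected) and Tle3 at -1.30 (-0.45 corrected).

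Other members of the list with large falls in KO fetal brain were Dner (-2.26, or -1.88 corrected), a neuronal Notch-binding protein, the atypical ligand Dlk1 (-1.62, or -1.00 corrected), the target Heyl (-2.21, or -1.52 corrected) and Dtx1 (-1.50, or -0.54 corrected), a deltex regulator. In a separate list of 6 proneural factors, 4 were lower, among them Neurog1 (-2.39, or -2.08 corrected), and 2 did not pass. Over all genes 32.5% were lower. With correction Neurod4 was lower too (-0.59, edgeR adjusted p = 0.0407). Hes proteins are known to repress proneural genes. Neurog1, Neurog2 and Neurod1 were lower in the same libraries in which Hes1 was lower. Hes5 was lower in them only without correction. A link between these genes was not tested.

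Between the KO ages the list split. Of 58 tested genes 25 were higher at week 70, 12 were lower and 21 did not pass, against 37.6% higher and 44.4% lower over all genes, with a median of 0.20 against -0.19 for all genes. After correction 25 were higher and 22 lower, against 39.6% and 39.2%. The 4 ligand ubiquitin ligases were all higher, Neurl1a by 3.97 and Neurl1b by 2.62 on the log2 scale, in the same libraries in which the 4 member ligands were lower; after correction 3 stayed higher and Mib2 was lower (-0.22). Fbxw7, which marks the Notch intracellular domain for degradation, was higher (2.55), as were Bend6 (1.91), a corepressor of Rbpj-driven genes, the contactin Cntn1 (3.25), Dner (1.71) and Heyl (2.08). The week 70 means of Dner (179.4 CPM) and Heyl (11.26 CPM) were not above those of WT fetal brain (251.1 and 11.77 CPM). Mfng, a glycosyltransferase that modifies receptors, was lower (-2.26), as was Dlk1 (-1.81). Notch3 was lower (-0.72, or -1.78 corrected). Notch4 (0.29, edgeR adjusted p = 0.236) and Dll4 (-0.07, adjusted p = 0.851) did not pass without correction and were lower with it (-0.97, adjusted p = 0.00231, and -0.82, adjusted p = 0.0436). All 6 proneural factors were lower, including Neurog2 (-5.46), Neurod4 (-3.70) and Neurod1 (-1.96).

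Of 7 gamma-secretase genes 6 were higher at week 70, the largest being Psenen (4.16) and Aph1c (2.07). The rows of Psenen and its pseudogene moved in opposite directions. Psenen had 44, 73 and 35 counts in KO fetal and 896 and 774 in week 70 libraries. Psenen-ps, identical over its aligned bases, had 540, 532 and 521 and then 12 and 4. How reads were shared between them is not given in the sources used here, so Psenen's own value is uncertain. With Psenen, Psenen-ps and a second, little-counted pseudogene summed, the log2 fold change was 0.64 (edgeR adjusted p = 0.000111). Aph1a went from 1.30 to 0.34 in the same way. Among the corepressors, Hdac1 went from 0.46 to -0.66 and Cir1 from 0.036 to -0.77. The coactivators Ep300, Kat2b and Snw1 hardly moved. Between the fetal genotypes Psenen did not pass alone (0.57) but passed as higher with its pseudogenes (0.67, edgeR adjusted p = 2.07e-05). The counts of higher and lower genes given for the roles and the list use each row alone.

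Against WT fetal brain, week 70 KO brain had 26 of 60 tested list genes lower and 17 higher, against 41.9% and 36.7% of all genes, with a median of -0.07. Notch3 (-2.63), Notch4 (-0.99), Dll4 (-0.82), Dlk1 (-3.39), Mfng (-2.66) and Hes6 (-2.01) were lower. The Dll4 call was lost without WT replicate 2 (adjusted p = 0.0583 by edgeR), WT replicate 3 (0.0573) or week 70 replicate 2 (0.0592, log2 -0.52) and with the replicate block (0.0623). Neurl1a (3.31), Bend6 (3.13), Cntn1 (2.63), Fbxw7 (2.28) and Psenen (4.78, or 1.36 with its pseudogenes) were higher. The proneural factors were all lower, Neurog2 by 6.55, Neurod4 by 3.54 and Neurod1 by 2.27. Neurog1 went from 147, 104 and 96 counts to 0 and 1.

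**Figure D4:**
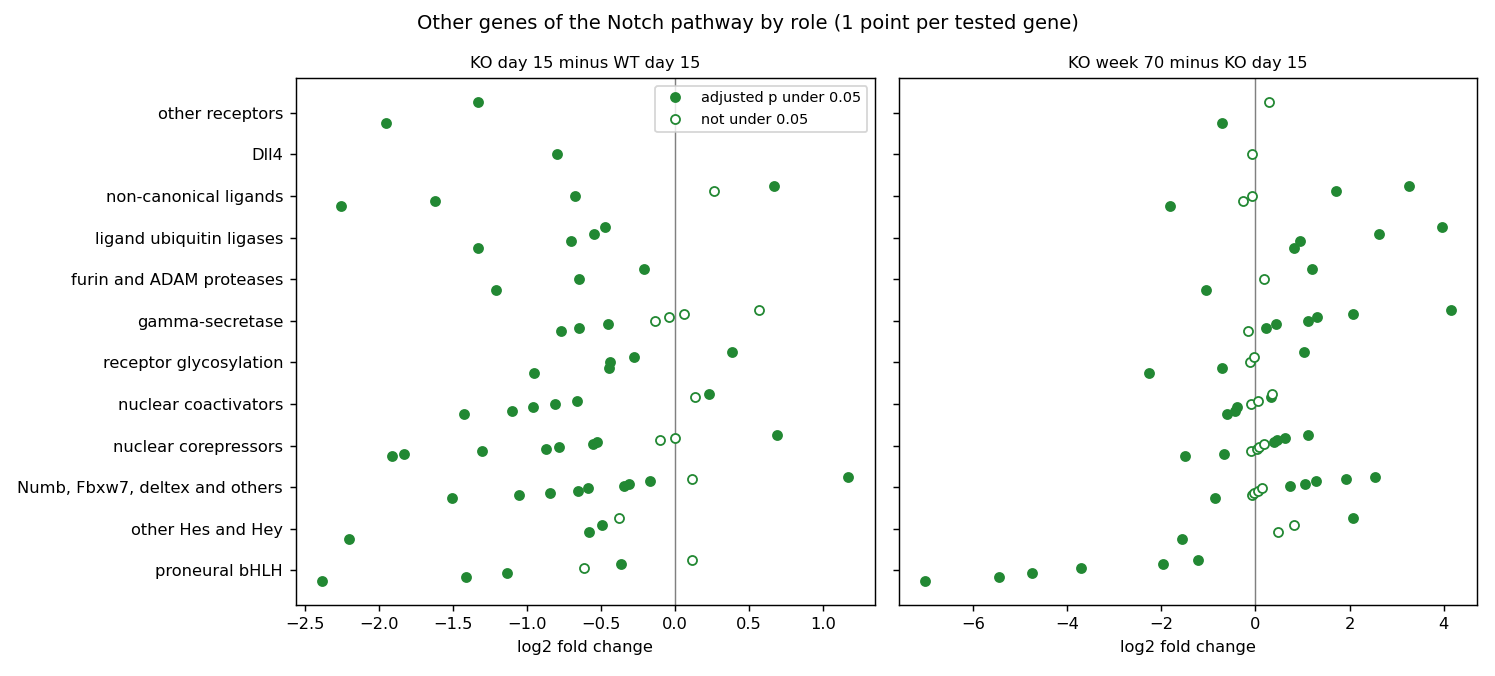
Log2 fold change (horizontal axes) of the other pathway genes and the proneural factors by role, 1 point per gene, filled where the edgeR adjusted p was under 0.05, without length and GC correction. Ligand ubiquitin ligases lie left of 0 in KO against WT fetal brain (4 of 4 lower, 2 of them higher when corrected) and right of 0 in week 70 against day 15 KO brain (4 of 4 higher, 1 of them lower when corrected).

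Markers of the cells that use Notch moved too. Their counts are given without length and GC correction unless stated. Over all genes 32.5% were lower and 30.1% higher in KO fetal brain. Between the KO ages 44.4% were lower and 37.6% higher at week 70. Of 10 radial glia markers 8 were lower and 2 higher in KO fetal brain, with a summed level of 1985 to 2079 CPM in WT, 1537 to 1650 in KO fetal and 1478 to 1503 in week 70 libraries. Single genes carried these sums: Fabp7 had means of 281.3, 785.2 and 23.58 CPM in the 3 groups, Slc1a3, also an astrocyte gene, 143.6, 71.54 and 913 CPM, and Nes 293.5, 54.11 and 18.67 CPM. Of 5 intermediate progenitor markers 4 were lower and 1 higher (519.3 to 566.5, 425.5 to 440.6 and 237.6 to 241.4 CPM). Endothelial cells also use Notch1, Jag1 and Hey1: of 8 endothelial markers 7 were lower and none passed as higher in KO fetal brain (188.3 to 259.8 against 63.27 to 78.72 CPM), and all 8 were higher at week 70 than in KO fetal brain (320.8 to 352.6). Of 7 mural cell markers tested 5 were lower and 1 higher in KO fetal brain (141.4 to 188.2, 129.9 to 140.3 and 195.4 to 205 CPM). Of 8 neuronal markers 4 were lower and 3 higher (5580 to 6154, 4823 to 4954 and 7939 to 8292 CPM). With length and GC correction the 3 higher ones, Stmn2 (0.12), Snap25 (0.03) and Neurod6 (0.04), did not pass. Rbfox3 and Map2 no longer passed as lower, while Dcx did (-0.21). At week 70, 7 of 7 astrocyte and 8 of 8 oligodendrocyte markers were higher than in KO fetal brain. Astrocyte markers summed to 291.2 to 370, 157.9 to 164.5 and 7124 to 7777 CPM, and oligodendrocyte markers to 147.8 to 180.2, 101.9 to 116.2 and 10950 to 11140. Erythroid markers (6 of 7 higher and 1 lower in KO fetal brain) summed to 1028 to 1309, 3593 to 4415 and 489.5 to 776.7 CPM, and microglial markers (1 of 7 higher and 3 lower) to 42.86 to 69.91, 28.84 to 32.18 and 406.7 to 518.8. Of 8 meningeal and fibroblast markers 6 were lower in KO fetal brain. Other fetal calls also depended on the correction. With it Pax6, Ptprz1 and Hopx (radial glia), Elavl2 (intermediate progenitors) and P2ry12 and Tmem119 (microglia) did not pass. None of the markers in these lists was at 0 throughout a group, and their part in the Notch gene differences was not tested.

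For the members, the 3 genes with the most similar pattern were sought among 12818 genes, by the distance between log2 CPM values centred over the 3 groups, across the 8 libraries. Notch1 was nearest to Scrt2 (0.33), Apc2 (0.345) and Marcks (0.468), where the median gene lay 3.4 away. Notch2 was nearest to Cad, Cdt1 and Fzd1 (0.251 to 0.296). Dll1 was nearest to E2f2 (0.22), Zfp518b and Chd7, and Dll3 to En2 (0.446), Cemip2 and Dlx2. Jag1 was nearest to Bcl2l11 (0.169), Adam19 and Vasp, and Jag2 to Tmem63b (0.189), Lrrc75b and Pkd1. Hes1 was nearest to Itga6 (0.326), Prkch and Stc2, Hes5 to Ankrd13b (0.157), Sbno2 and Cdc25b, and Rbpj to Cdkn1b (0.383), Fem1b and Ptprz1. Genes near Hey1 included Abhd4 (0.213) and Tnk2 (0.217). No member was among the 3 nearest genes of another member.

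On the GRCm38 assembly (GENCODE M21) the members lie on 8 chromosomes, as protein-coding genes counted over their exons. Notch1 is at chr2:26457903-26516663 (minus strand) and Jag1 on the same chromosome at chr2:137081456-137116644 (minus). Notch2 is at chr3:98013527-98150361 (plus) and Hey1 at chr3:8663359-8667256 (minus). Dll1 is at chr17:15367354-15376872 (minus), Dll3 at chr7:28293553-28302238 (minus) and Jag2 at chr12:112907819-112929776 (minus). Hes1 is at chr16:30064384-30067796 (plus), Hes5 at chr4:154960923-154962371 (plus) and Rbpj at chr5:53466152-53657362 (plus).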

How the data were processed

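The values are raw read counts by gene, deposited by the authors as 1 table of all 8 libraries; every column of values was used. Per the labels' protocols, poly-A RNA was selected and primed with random hexamers. Per the submitters' processing notes, FastQC, cutadapt, Trimmomatic, HISAT2, featureCounts and edgeR were used, and the builds GRCm38 and GRCm39 are named; which build was used, and how strand and multiply mapping reads were treated, is not given in the sources used here. The counts were analysed as deposited.

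The groups were compared in pairs with edgeR 4.0.16 (R 4.3.3): filterByExpr, TMM scaling, a quasi-likelihood fit on the libraries of the groups compared, and Benjamini-Hochberg adjustment over all genes tested, with a threshold of 0.05. The SE is the absolute log2 fold change over the square root of the F statistic. Printed CPM values use TMM over all 8 libraries. Gene lengths, GC content and positions came from GENCODE M21, which matched 33367 of 34299 identifiers (97.3%); 351 rows had no gene name. The length and GC correction is a per-library offset from a smooth fitted with mgcv 1.9.3. Pseudogenes were paired with parents by minimap2 2.31 (at least 50% aligned and 85% identity). Alternatives were RLE and upper-quartile scaling, other filters, DESeq2 1.42.0, 1 fit of all libraries, removal of mitochondrial and haemoglobin genes, and each library left out. Scripts were tested on simulated data.

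The members and gene lists were chosen with earlier results of these data known. Of the other pathway genes, the text names by rule up to 14 per comparison, plus Notch3, Notch4 and Dll4. The rule takes those with the largest change among genes past the threshold with at least 50 mean counts and no overlap. Aph1a, Hdac1, Cir1, Ep300, Kat2b, Snw1, Mib2, Pofut1, Rfng, Numbl, Dtx3 and the proneural factors outside that rule were named after their values were seen. The floor for a count of 0 is 3 counts, for counting error only. No 2 libraries were duplicates. A few genes that the naming rule picked are not reported here.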

Additional observations from a re-analysis of the deposited data

How the results depend on the processing

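The number of members past the threshold stayed between 8 and 10 in KO against WT fetal brain, 7 and 9 between KO ages, and 9 and 10 between week 70 KO and day 15 WT brain, over every alternative tried. Leaving out 1 library gave 9 to 10, 7 to 9 and 9 to 10. DESeq2 called 10, 8 and 9. Over all genes tested, 62.6%, 82.0% and 78.6% were called in the main fits. Over the alternatives that kept every library, 8813 to 12542, 13910 to 18622 and 13096 to 16508 genes were called. The member counts take both directions together, with Jag2 as higher in corrected fetal brain.

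Among the members and the pathway genes named by rule, these values changed sign. With length and GC correction, Jag2 in fetal brain was 0.63 (0.63 also with the replicate block) and Notch4 between KO ages was -0.97 (-1.05 with the block). Dll4 between KO ages was 0.029 with all 8 libraries in 1 fit, 0.21 without KO fetal replicate 2 and 0.24 without week 70 replicate 2, within a range of -0.45 to 0.24 over the libraries left out. Hes1 in week 70 KO against WT fetal brain was 0.25 without week 70 replicate 2 and -0.62 without week 70 replicate 1. Among all other pathway genes, correction turned the sign of 6 called genes in fetal brain and of 1 (Mib2) between KO ages. Adding pseudogene counts to the parent gene turned the sign of Hdac1 and Cir1 between KO ages. In week 70 KO against WT fetal brain it turned Aph1a (0.90 to -0.27), Hdac1 (0.405 to -1.02) and Cir1 (0.77 to -0.034). For settings other than these left-out libraries the cause was not tested.

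The replicate numbers did not pair the libraries: same-numbered fetal libraries had correlations of -0.159, -0.19 and -0.173 between their deviations from the group means. With the replicate block, 11184, 14876 and 13244 genes and 9, 8 and 9 members were called in the 3 comparisons, and 8813, 13910 and 13096 genes and 8, 9 and 9 members with the block and the correction together. The members' counts stayed within 1.5 times in each; Rbpj was the member lost in fetal brain (-0.35, edgeR adjusted p = 0.0557).

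With 2 libraries at week 70, 1 library can decide a value, as for Hes1 and Jag2. Dll3 at week 70 and Rbpj beside its pseudogene are limited by low counts and by shared sequence.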
